A study of Mus musculus with 14 samples.

Results

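Reactivated and Late hippocampal neurons were compared for chromatin accessibility after memory recall and without it. The comparison set 3 Reactivated against 4 Late libraries, 7 of the 14 ATAC-seq libraries of the study, over 172010 of 191271 listed regions. These were the regions with a mean of at least 0.83 RPKM over the 14 libraries (172024), without 6 on chrUn_random and 8 above 40 RPKM in any library. RPKM is a read count divided by the width of the region and the scaling total of the library. The means just inside and just outside the lower limit were 0.830011 and 0.829996 RPKM. The highest single value kept was 33.7 RPKM, and the region nearest above the upper limit reached 41.8 RPKM.

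All mice were ArcCreERT2 x R26R-STOP-floxed eYFP animals with the genotype label +/+. In this design 4-hydroxytamoxifen lets a Cre recombinase driven by Arc switch on a permanent yellow fluorescent label, so labelled cells are those in which Arc was active around the time of the drug. The drug was given before all mice received a foot shock on day 0 in contextual fear conditioning, to Reactivated and Late mice alike. Reactivated mice were put back into the conditioned context with the tone on day 5, and their libraries carry collection days 5, 6 and 7 for replicates 1, 2 and 3, so replicate and labelled day cannot be told apart. The treatment protocol describes recall and collection at 5 days only, so whether the later days are true is uncertain. Late mice had no recall and were collected on day 5. Nuclei from pools of 10 to 12 mice were stained for NeuN, Arc and GFP and sorted to 10000 per condition. The labels do not say which sorted population each library holds, and give no ages. The study states 3 biological replicates while 4 Late libraries are listed, so p-values measure the spread between libraries, part of which may be technical. Basal (n = 4) and Early (n = 3) libraries, both labelled with collection on day 0, are described only as levels beside this comparison. They do enter the limit on mean RPKM. They also enter the shared estimate of spread in the limma fits, and so its standard errors and p-values.

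In ATAC-seq a transposase inserts adapters where DNA is not covered by nucleosomes, so read density follows how open a stretch of chromatin is. A level is an average over sorted nuclei, so more open nuclei and more insertions per nucleus cannot be told apart. Open regions in neurons include promoters, which tend to be broad and strongly open, and enhancers, which are narrower and differ more between cell states. Neuronal activity is known to change accessibility at activity-dependent enhancers, where transcription factors induced by activity bind. The table gives positions on the mm9 build without gene names, and no annotation of that build was used here. The neuronal label was therefore not checked against marker genes, and regions are named by position. Whether a region holds repeated sequence, to which reads cannot be placed uniquely, was not checked either.

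The libraries of the 2 groups differed as wholes. Reactivated replicates 1, 2 and 3 had 23.4%, 20.5% and 23.1% of their reads in the regions, against 17.8%, 18.3%, 19.3% and 18.5% in Late replicates 1 to 4. The difference of 3.86 percentage points had an exact permutation p of 0.0571 (2-sided, adjusted over 3 library measures 0.0857), the smallest that 3 against 4 libraries allow. The level exceeded by 1% of regions was 4.40 ± 0.258 times the library median in Reactivated (SD, n = 3) and 2.84 ± 0.0453 times in Late (n = 4), with no overlap and the same exact permutation p of 0.0571 (adjusted 0.0857). Basal libraries had 3.99 ± 0.531 on this measure (n = 4) and Early libraries 3.84 ± 0.624 (n = 3). Every Basal and Early library was above every Late one. Median RPKM was 1.56, 1.41 and 1.54 in Reactivated and 1.38, 1.42, 1.51 and 1.45 in Late, groups that overlap (exact permutation p = 0.286). A median region held 39 to 45 reads in a Reactivated library and 33 to 37 in a Late one.

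The Late libraries also stood apart from those of the other 3 groups. No region kept here exceeded 0.698 reads per base in any Late library, whereas the maximum was 1.60 to 1.78 in Reactivated and 1.27 to 1.83 in Basal and Early. Between 1 and 2 regions passed 0.5 reads per base in each Late library, against 366 to 878 in the Reactivated ones. The totals used for scaling were 54257224 to 56251679 reads in Reactivated and 46134255 to 47375214 in Late. Of 99 regions on chrUn_random, 0 held more than 1 read in any Reactivated library, while 69 to 72 did in each Late library. These traits go with the Late label in every library, so their share in the results below and that of recall cannot be told apart.

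On the scale as deposited, 397 of the 172024 tested regions passed (0.231%), 44 higher (0.0256%) and 353 lower (0.205%) in Reactivated (limma on log2(RPKM + 0.5), Benjamini-Hochberg adjusted p under 0.05). Without the 14 regions left out, 37 were higher and 347 lower. The regions that fell had a median level of 0.630 RPKM in Reactivated and 2.32 RPKM in Late, and were mostly narrow, with a median width of 377 bases. Their median was 0.633, 0.598 and 0.598 RPKM in Reactivated replicates 1, 2 and 3, against 2.09, 2.38, 2.32 and 2.43 RPKM in Late replicates 1 to 4. In Basal and Early the same regions had medians of 0.942 and 0.906 RPKM, and the Basal mean lay below the Late mean in 342 of the 347, the Early mean in 340. Over all regions kept these shares were 69.3% and 47.9%. The falls were chosen for high values in Late and low ones in Reactivated, so where Basal and Early lie between or beside them depends in part on that choice. The 37 regions that rose had a median of 2.26 RPKM in Reactivated and 0.673 RPKM in Late, with 1.21 RPKM in Basal and 1.01 RPKM in Early. All 37 and all 347 had groups without overlap. Over all tested regions 13.5% had every Reactivated library above every Late one and 5.03% every one below.

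Dividing each library by its median changed the balance of calls. On that scale 1965 of the 172024 tested regions passed (1.14%), 1299 higher (0.755%) and 666 lower (0.387%), or 1291 and 660 among the regions kept. Of the calls on the deposited scale 30 of 37 higher and 340 of 347 lower regions were also called after the division, so the added calls were mostly rises. The division moved the median log2 fold change over the kept regions only to 0.04, against 0.09 as deposited. With median-of-ratios scaling 1181 regions were higher and 750 lower, and with quantile normalization 94 and 542. Rises outnumbered falls after the division and after median-of-ratios scaling, and falls outnumbered rises as deposited and after quantile normalization. On the deposited values rises also outnumbered falls in a fit of the Reactivated and Late libraries alone (5488 higher, 1214 lower) and with array weights (3802 higher, 1829 lower).

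The 1291 regions higher after the division were broad and strongly open. Their median width was 1374 bases, against 529 over all regions kept, and their median RPKM was 7.23, 6.18 and 7.03 in Reactivated replicates 1, 2 and 3 and 3.19, 3.47, 3.45 and 3.36 in Late replicates 1 to 4. The medians were 4.56 RPKM in Basal and 4.73 RPKM in Early, between those of Reactivated and Late, and the Basal mean exceeded the Late mean in 1203 and the Early mean in 1201. These regions too were chosen for low values in Late, and over all regions kept Basal lay below Late in 69.3% and Early in 47.9%. Of the 1291, 1001 were at least 1000 bases wide, 1181 lay in the top quintile of level and 985 met both. Of all regions kept, 16.5% were 1000 to under 2000 bases wide and 1.5% at least 2000. In these 2 width classes, regions also in the top quintile made up 5.26% and 0.708% of all kept. The 1291 held a median of 532 reads in Reactivated and 222 in Late, far more than a median region. How far read number set which regions passed was not tested. The 660 lower regions had a median of 0.718 RPKM in Reactivated and 2.16 RPKM in Late, and 0.905 and 1.06 RPKM in Basal and Early. Groups did not overlap in any of these 1951 regions, where 11.6% of all tested regions had Reactivated wholly above Late and 6.55% wholly below on this scale.

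Both counts rest on each library. As deposited, 384 calls became 203, 139 and 184 without Reactivated replicates 1, 2 and 3, and 261, 194, 201 and 190 without Late replicates 1 to 4. After the division, 1951 became 215, 181 and 102 without Reactivated replicates 1, 2 and 3, and 283, 287, 251 and 216 without Late replicates 1 to 4. Higher regions then numbered 13 to 112 and lower ones 89 to 202, so the excess of rises turned into an excess of falls. A fit of Reactivated and Late libraries alone gave 6406 calls after the division, and with the 4 Late libraries averaged to 1 sample limma called 0 regions, while 4532 had an unadjusted p under 0.05.

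Region level was the property along which the groups differed most visibly. The regions were put into 5 equal classes by mean RPKM over the 14 libraries, from 0.83 to 1.07 RPKM in the lowest and 1.86 to 20.3 RPKM in the highest. The median of the highest class was 2.02, 1.86 and 1.96 times the library median in Reactivated replicates 1, 2 and 3 and 1.67, 1.67, 1.67 and 1.65 times in Late replicates 1 to 4. Every Reactivated library was above every Late one. In the lowest class the median was 0.664 ± 0.0364 times the library median in Reactivated (SD, n = 3) and 0.709 ± 0.00332 times in Late (n = 4), with every Reactivated library below. The range between weakly and strongly open regions was thus wider in each Reactivated library than in any Late library.

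As 1 value per library, the median log2 level of the highest class minus that of the lowest was 1.31, 1.08 and 1.19 in Reactivated and 0.91, 0.93, 0.94 and 0.92 in Late. The difference of 0.27 had an exact permutation p of 0.0571 (2-sided, adjusted over 5 contrasts 0.0952) and did not pass the adjustment. Basal libraries had 0.876 ± 0.196 (SD, n = 4) and Early libraries 0.994 ± 0.303 (n = 3), so both were closer to Late in the mean but far more spread. With classes formed from the Basal and Early libraries alone, whose values do not enter this difference, it was 0.25.

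Calls after the division followed the level classes. From the lowest to the highest class 17, 21, 35, 37 and 1181 regions were higher and 151, 170, 161, 132 and 46 lower, each class holding 34402 regions. The median log2 fold change was -0.04, -0.02, 0.01, 0.05 and 0.24. Within the top 5% of regions 1043 of 8601 rose (12.1%), with a median log2 fold change of 0.49, and the class stood at 3.18 ± 0.143 times the library median in Reactivated and 2.26 ± 0.0235 times in Late. Basal (2.63 ± 0.451, n = 4) and Early (2.63 ± 0.583, n = 3) lay between them in the mean. Single libraries ranged from 2.226 to 3.232 in Basal and from 2.039 to 3.205 in Early. Where classes were formed from Basal and Early alone, the highest held 1174 higher regions and had a median of 0.22.

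**Figure D1:**
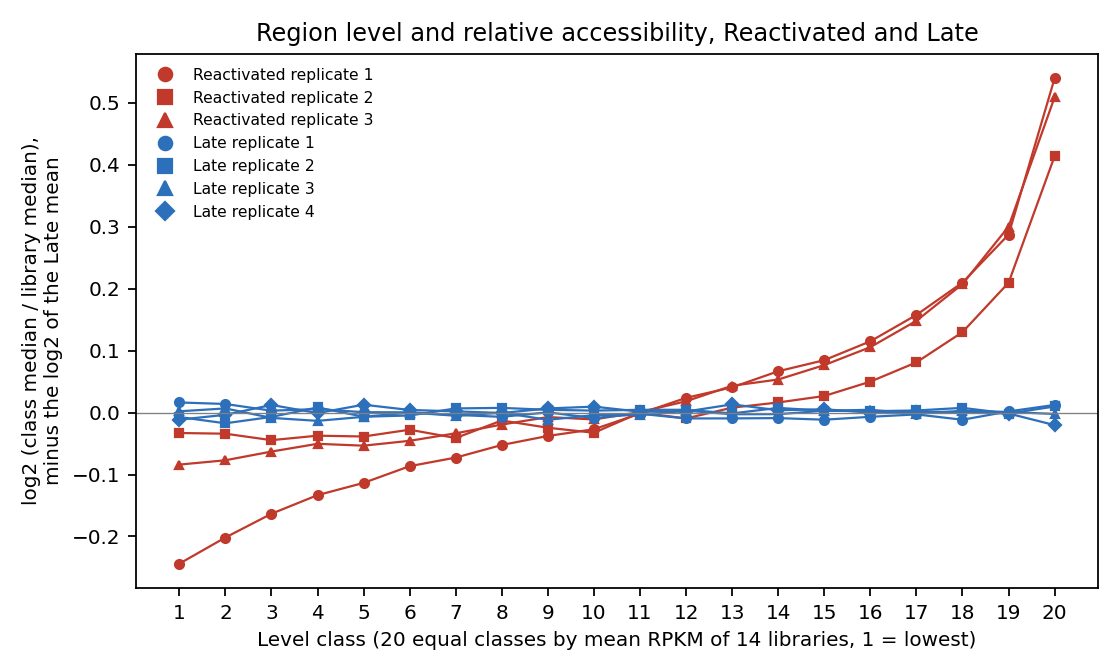
Relative accessibility by region level in the 3 Reactivated and 4 Late libraries. The x axis gives 20 equal classes of mean RPKM, each point is the class median of 1 library over the library median on a log2 scale, minus the log2 of the Late mean. The Reactivated lines lie below the Late lines at the lowest levels and above them from the upper classes on, with the widest distance in the highest class (3.18 times the library median in Reactivated, 2.26 times in Late).

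Some width classes also separated the groups. Relative to the library median, regions of 2000 bases or more stood at 1.40, 1.47 and 1.51 in Reactivated replicates 1, 2 and 3 and at 1.20, 1.23, 1.18 and 1.21 in Late replicates 1 to 4. Of these 2579 regions 167 were higher (6.48%) and 0 lower after the division. Regions of 1000 to under 2000 bases stood at 1.18 ± 0.0274 in Reactivated (SD, n = 3) and 1.09 ± 0.00584 in Late (n = 4), with 834 of 28360 higher (2.94%) and 31 lower. Both broad classes had every Reactivated library above every Late one. Basal libraries had 1.46 ± 0.111 at 2000 bases or more (n = 4), as much as Reactivated, and Early libraries 1.24 ± 0.0682 (n = 3).

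The most common widths went the other way. Regions of 200 to under 500 bases stood at 0.927 ± 0.0105 of the library median in Reactivated and 0.963 ± 0.00467 in Late, without overlap, and of 67470 such regions 93 were higher and 368 lower. Those of 500 to under 1000 bases overlapped between the groups, at 0.995 ± 0.0134 in Reactivated and 0.990 ± 0.00324 in Late. Regions under 200 bases stood at 1.01, 1.14 and 0.914 in Reactivated replicates 1, 2 and 3 and 0.989 to 1.03 in Late. This spread among Reactivated libraries set the width contrast, the median log2 level at 1000 bases or more minus that under 200 bases, which was 0.17, 0.05 and 0.33 in Reactivated and 0.07, 0.09, 0.11 and 0.06 in Late. The groups overlapped and the difference of 0.10 did not pass (exact permutation p = 0.286, 2-sided, adjusted over 5 contrasts 0.286). It was 0.16 without Reactivated replicate 2 and 0.03 without Reactivated replicate 3.

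**Figure D2:**
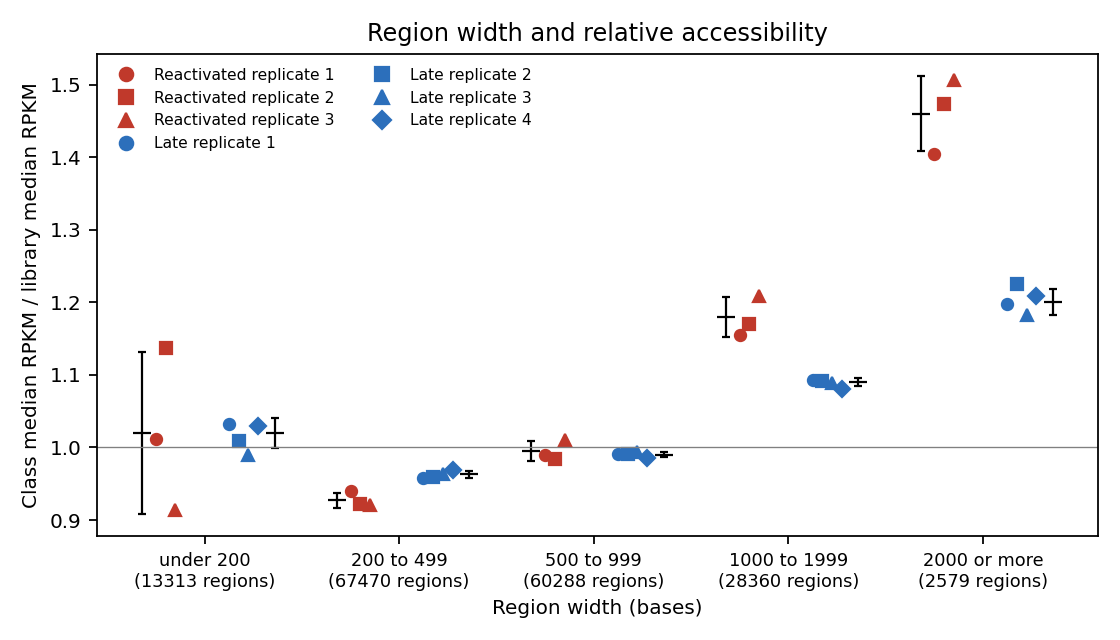
Median RPKM of each width class over the library median, with 1 point per library for the 3 Reactivated and 4 Late libraries and black bars for the mean ± SD. Reactivated points lie above Late points at 1000 bases and more and below them at 200 to under 500 bases, while under 200 bases the Reactivated libraries spread around the Late ones (0.914 to 1.14 in Reactivated, 0.989 to 1.03 in Late).

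Level and width were then crossed. In the highest level class, regions of 1000 to under 2000 bases stood at 2.30 ± 0.0675 times the library median in Reactivated and 1.74 ± 0.0205 times in Late, and those of 2000 bases or more at 2.39 ± 0.129 times in Reactivated and 1.71 ± 0.0173 times in Late. Of the 9047 and 1218 regions in these cells, 822 (9.09%) and 163 (13.4%) rose after the division. In the lowest level class, regions of 2000 bases or more overlapped, at 0.715 ± 0.0139 times the library median in Reactivated and 0.716 ± 0.00728 times in Late. Those of 1000 to under 2000 bases were at 0.652, 0.713 and 0.722 times in Reactivated and 0.725 to 0.734 times in Late, with every Reactivated library below. High regions under 200 bases overlapped too, at 1.47 ± 0.129 in Reactivated and 1.47 ± 0.0302 in Late. In the middle class, however, regions of 2000 bases or more were at 1.08 ± 0.0361 in Reactivated and 0.962 ± 0.00961 in Late, without overlap, with 2 of 368 called higher. The distance between the groups was widest where a region was both broad and strongly open.

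A departure at narrow, weak regions came from 1 library. The 1070 regions under 200 bases in the lowest class stood at 1.44 times the library median in Reactivated replicate 2, against 0.499 and 0.543 in Reactivated replicates 1 and 3 and 0.595 to 0.637 in the Late libraries. In the next class Reactivated replicate 2 was at 1.21, the other Reactivated libraries at 0.670 and 0.667, and Late at 0.715 to 0.741. The median log2 fold changes of 0.17 and 0.12 in these classes go with Reactivated replicate 2, the other Reactivated libraries lying below every Late library in both.

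**Figure D3:**
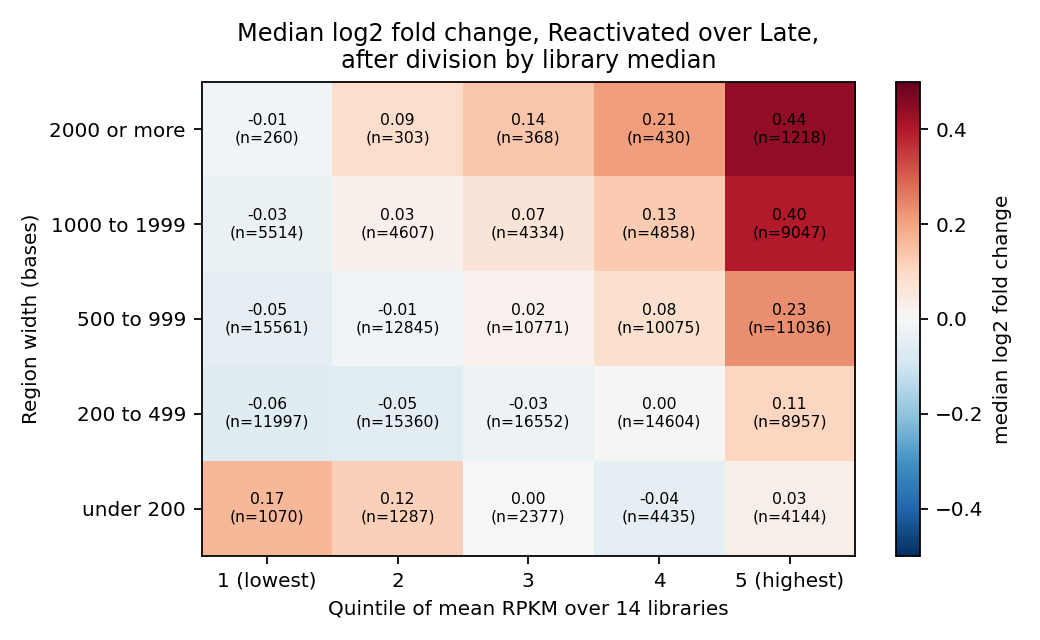
Median log2 fold change of Reactivated over Late after division by the library median, for each combination of level quintile (x axis) and region width (y axis), with the number of regions in each cell. Values climb towards the upper right, to 0.40 and 0.44 for broad regions of the highest class. The 0.17 and 0.12 at the lower left go with Reactivated replicate 2.

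Spacing separated the groups less. Regions 50 kb or more from the nearest listed region stood at 1.09, 1.01 and 1.06 times the library median in Reactivated replicates 1, 2 and 3 and at 1.12, 1.13, 1.10 and 1.11 times in Late replicates 1 to 4. All Reactivated libraries were below all Late ones. Of these 850 isolated regions 5 were higher (0.588%) and 12 lower (1.41%) after the division, against 0.755% and 0.387% of all tested regions. Regions under 1 kb from the next stood at 0.985 ± 0.0164 in Reactivated and 0.973 ± 0.00320 in Late, and the groups overlapped. The log2 difference between isolated and close regions was 0.13, 0.01 and 0.08 in Reactivated and 0.15, 0.17, 0.14 and 0.14 in Late. It differed by -0.07 (exact permutation p = 0.0571, 2-sided, adjusted over 5 contrasts 0.0952), by -0.11 without Reactivated replicate 1 and by -0.04 without Reactivated replicate 2. Basal libraries had -0.26 ± 0.0401 (n = 4) and Early libraries -0.13 ± 0.241 (n = 3), so isolated regions were weaker than close ones there in the mean and stronger in both Reactivated and Late.

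Isolated regions behaved by level as others did. In the highest level class the 161 isolated regions stood at 2.29, 1.86 and 1.94 times the library median in Reactivated and 1.72 to 1.79 times in Late. In the lowest class the 176 isolated ones stood at 0.650, 0.665 and 0.689 in Reactivated and 0.765 to 0.829 in Late. In both, the groups were apart and in opposite directions. Among regions of the highest class, those 5 to 20 kb from the next rose most often, 632 of 9862 (6.41%), against 111 of 6451 (1.72%) for those under 1 kb. Their median widths were 924 and 530 bases.

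Called regions were not always alone in their direction. Within 5 kb of the regions higher after the division lay 519 listed regions that had not been called, of which 427 had a log2 fold change above 0 and 92 below, with a median of 0.26. The 345 uncalled neighbours of lower regions had a median of -0.13, with 225 below 0 and 120 above. As deposited, the 188 neighbours of lower regions had a median of -0.06, with 105 below 0 and 83 above, and the 22 neighbours of higher regions 0.26, with 19 above 0. Over all regions 55.1% lay above 0 after the division and 60.8% as deposited.

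Named positions followed the largest called changes with groups without overlap and a mean log2 level above the median, 10 each way as deposited and 4 each way after the division, 22 in all. The region with the largest rise, chr3:5860345-5860825, had 17.5, 30.9 and 29.4 RPKM in Reactivated replicates 1, 2 and 3 and 6.10, 6.01, 7.12 and 5.41 RPKM in Late replicates 1 to 4. Reactivated replicate 1 was the lowest of its group and still well above every Late library. The log2 fold change was 1.95 ± 0.308 SE (limma, Benjamini-Hochberg adjusted p = 0.00329), and 1.81 without Reactivated replicate 2, where the call was lost (adjusted p = 0.0573). Basal stood at 22.7 ± 1.93 RPKM and Early at 7.91 ± 1.37 RPKM, so the Reactivated level was near that of Basal and the Late level near that of Early. Under quantile normalization the log2 fold change was 0.73.

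A similar division of the 4 groups was seen at chr5:147072568-147072940. It had 20.1, 22.6 and 21.4 RPKM in Reactivated and 8.51, 6.12, 9.25 and 7.72 RPKM in Late (a log2 fold change of 1.39 ± 0.299 SE, limma adjusted p = 0.0476), with 22.6 ± 2.79 RPKM in Basal and 9.28 ± 1.30 RPKM in Early. Its log2 fold change was 0.02 under quantile normalization, which equalizes the upper range of the libraries, and without any single library the adjusted p was 0.118 to 0.284.

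A region at the edge of the listed part of chromosome 9 stood above all other groups in Reactivated. The region chr9:3033826-3038220, 4394 bases wide and 33.8 kb from the first listed region of the chromosome, had 3.64, 5.11 and 2.50 RPKM in Reactivated and 1.41, 1.33, 1.08 and 1.19 RPKM in Late. Basal was at 1.02 ± 0.270 RPKM and Early at 1.04 ± 0.110 RPKM, so that the highest values were those of Reactivated and the other groups lay close together. The log2 fold change was 1.24 ± 0.235 SE (limma adjusted p = 0.0183). It was 1.01 without Reactivated replicate 2 (adjusted p = 0.182), and the call was also lost without Reactivated replicate 1 or without Late replicates 2, 3 or 4.

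Further rises near chromosome ends were chr6:3150778-3151666, 150.0 kb from the first listed region of chromosome 6, and chr19:61275355-61275944, 65.8 kb from the last one of chromosome 19. The position on chromosome 6 had 4.34, 7.41 and 6.68 RPKM in Reactivated and 2.45, 2.03, 2.52 and 2.42 RPKM in Late (a log2 fold change of 1.19 ± 0.239 SE, limma adjusted p = 0.0285), with 3.44 ± 0.129 RPKM in Basal and 1.35 ± 0.126 RPKM in Early. The position on chromosome 19 had 15.0, 9.73 and 11.1 RPKM in Reactivated and 4.75, 4.23, 3.91 and 3.97 RPKM in Late (a log2 fold change of 1.38 ± 0.291 SE, limma adjusted p = 0.0420), with 6.26 ± 1.73 RPKM in Basal and 5.61 ± 1.59 RPKM in Early. Reactivated libraries were above all libraries of the other 3 groups at both positions. Leaving out 1 library ended the call for 6 of 7 libraries on chromosome 6 and for all 7 on chromosome 19.

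The other 5 rises as deposited rest mostly on few reads. At chr16:23890791-23890929, 138 bases wide, Reactivated libraries had 28, 25 and 16 reads and Late libraries 5, 1, 9 and 2, a log2 fold change of 1.70 ± 0.336 SE (limma adjusted p = 0.0255). The regions chr6:103599050-103599280, chr15:71473063-71473210, chr13:14723502-14723654 and chr8:117883660-117883956 rose by 1.18 to 1.40 on the log2 scale, with 24 to 175 reads in Reactivated libraries and 4 to 41 in Late ones. Their adjusted p-values were 0.0461 to 0.0497, close to the threshold. Leaving out 1 library ended the call in all 7 cases for those on chromosomes 15, 13 and 8, in 6 for that on chromosome 6 (all but Reactivated replicate 3) and in 4 for that on chromosome 16 (Reactivated replicates 1 and 2, Late replicates 2 and 4).

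Among the rises named after the division, 2 were broad regions that were not called as deposited. At chr1:152239308-152241021, 1713 bases wide, the level was 19.5, 20.3 and 22.1 RPKM in Reactivated and 7.27, 6.42, 6.80 and 6.29 RPKM in Late (after the division a log2 fold change of 1.49 ± 0.228 SE, limma adjusted p = 0.00856, as deposited 0.0970). At chr3:145586768-145587984, 1216 bases wide, it was 20.5, 17.7 and 21.8 RPKM in Reactivated and 6.36, 6.79, 6.86 and 6.60 RPKM in Late (1.45 ± 0.227 SE, limma adjusted p = 0.00924, as deposited 0.122). Both groups were tight. At the position on chromosome 1 Basal ranged from 6.54 to 17.8 RPKM and Early from 7.87 to 26.4 RPKM. Of these day 0 libraries only Basal replicate 3, at 6.54 RPKM, was as low as Late. The calls were lost without Reactivated replicate 2 (adjusted p = 0.0514) or 3 (0.0646) on chromosome 1, and without Reactivated replicate 1 (0.0501) or 3 (0.0689) on chromosome 3.

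As deposited, calls of the named falls were mostly lost less often than those of the rises when single libraries were left out. The region chr10:29617445-29618030 had 0.790, 0.756 and 0.410 RPKM in Reactivated and 3.31, 2.37, 3.18 and 3.75 RPKM in Late (a log2 fold change of -1.67 ± 0.236 SE, limma adjusted p = 0.00136). At chr15:7758298-7758509 the values were 0.421, 0.611 and 0.786 RPKM in Reactivated and 1.94, 3.39, 2.90 and 3.63 RPKM in Late (-1.63 ± 0.250 SE, adjusted p = 0.00265). At both, the lowest Late library was well above the highest Reactivated one. Basal and Early lay between the groups, at 1.65 ± 0.326 and 1.28 ± 0.323 RPKM on chromosome 10 and at 1.75 ± 0.276 and 1.16 ± 0.481 RPKM on chromosome 15.

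The region chr13:33170174-33170499 had 0.930, 0.510 and 0.567 RPKM in Reactivated and 4.71, 2.94, 2.08 and 3.27 RPKM in Late (a log2 fold change of -1.65 ± 0.254 SE, limma adjusted p = 0.00266). At chr1:69020395-69020640 the values were 0.653, 0.752 and 0.226 RPKM in Reactivated and 2.11, 2.65, 2.15 and 3.82 RPKM in Late (-1.62 ± 0.257 SE, adjusted p = 0.00350, and 0.0598 without Reactivated replicate 3). Late replicate 1 was highest on chromosome 13 and Late replicate 4 on chromosome 1, so no single Late library carried both falls. These 4 regions rest on 3 to 26 reads in Reactivated libraries and 19 to 103 in Late ones.

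The 6 larger falls were at chr5:9716395-9716607, chr17:81941615-81942269, chr10:37960233-37960396, chr12:92442904-92443044, chr4:114059079-114059412 and chr12:97198746-97199017, with log2 fold changes of -1.86 to -1.67. At chr17:81941615-81942269 the single values were 0.870, 0.423 and 1.21 RPKM in Reactivated and 4.05, 4.31, 3.78 and 4.65 RPKM in Late (limma adjusted p = 0.000577), with 0.916 ± 0.267 RPKM in Basal and 0.723 ± 0.188 RPKM in Early. Late stood alone there, and the other 3 groups overlapped. The 10 named falls had been chosen for high levels in Late against Reactivated, so the order of the groups there is a description. Besides that at chr1:69020395-69020640, the calls of 2 falls as deposited were lost without single libraries, at chr10:37960233-37960396 without Reactivated replicate 1 or 3 or Late replicate 2 or 3 (adjusted p up to 0.148), and at chr12:92442904-92443044 without any library but Reactivated replicate 3 (adjusted p up to 0.213). After the division the calls at these 2 positions were lost whichever of the 7 libraries was left out, with adjusted p up to 0.166 and 0.162, and that at chr5:9716395-9716607 without Reactivated replicate 1 (0.0583) or 3 (0.0649).

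**Figure D4:**
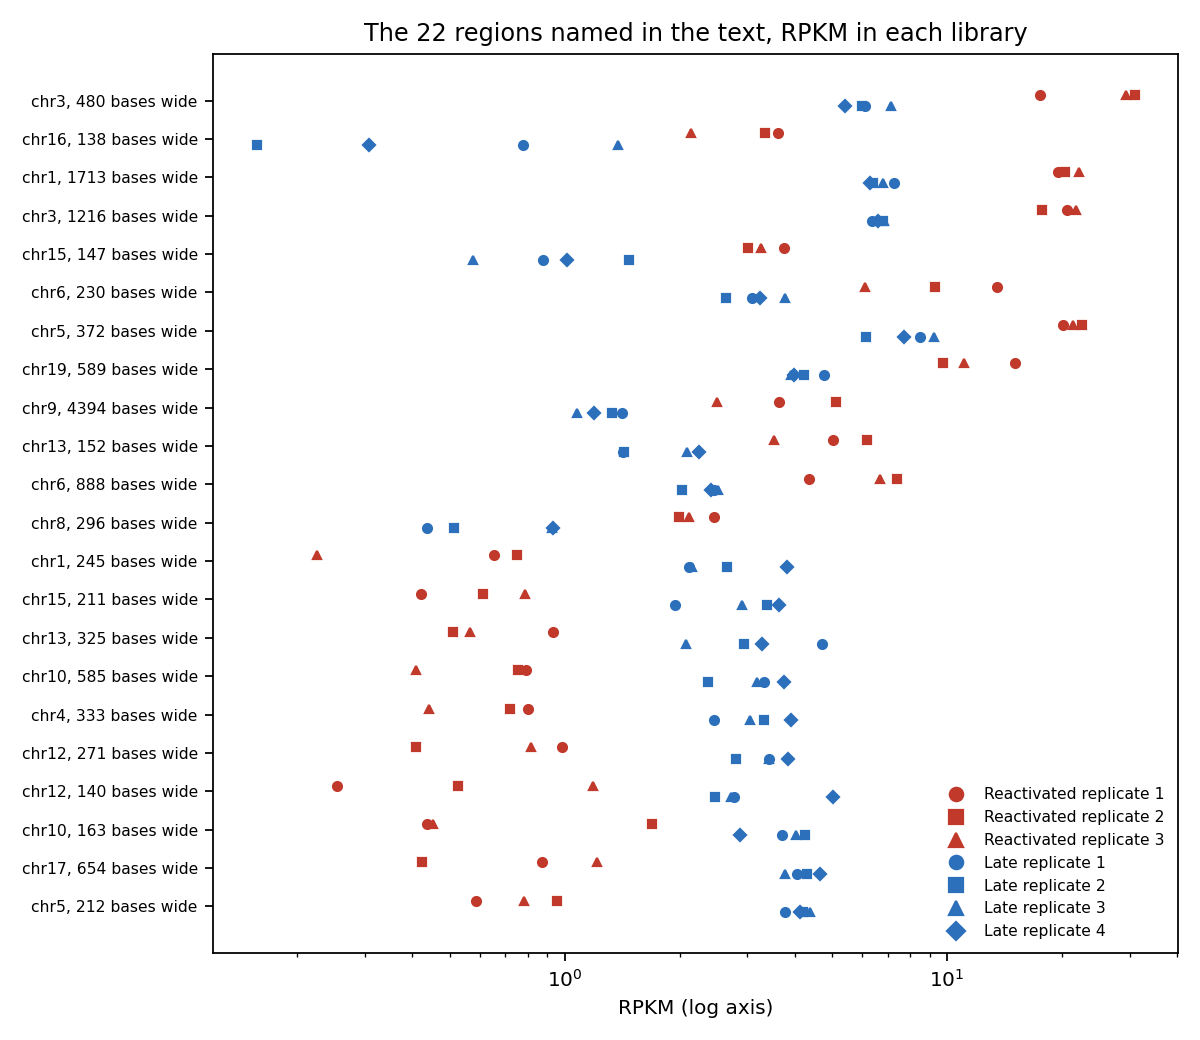
RPKM of the 22 named regions in each Reactivated and Late library on a log axis, with regions ordered by log2 fold change from the largest rise at the top to the largest fall at the bottom. The libraries of the groups do not overlap at any of them, with 17.5 to 30.9 RPKM in Reactivated and 5.41 to 7.12 RPKM in Late in the top row.

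Position along chromosomes was examined last. Mouse chromosomes carry the centromere near the numbered start. Regions in the first 20 Mb stood at 0.906, 0.965 and 0.975 times the library median in Reactivated replicates 1, 2 and 3 and at 1.02, 0.991, 1.01 and 0.986 times in Late replicates 1 to 4. Those in the last 20 Mb stood at 1.08, 1.01 and 0.992 in Reactivated and 0.942, 0.985, 0.963 and 0.987 in Late. The groups were apart in both, in opposite directions, but their nearest libraries were close, at 0.975 in Reactivated and 0.986 in Late at the start and at 0.992 in Reactivated and 0.987 in Late at the end. The log2 difference of start minus end was -0.20, -0.04 and -0.02 in Reactivated and 0.09, 0.01, 0.05 and -0.00 in Late, a difference of -0.12 (exact permutation p = 0.0571, 2-sided, adjusted over 5 contrasts 0.0952). It was -0.07 without Reactivated replicate 1. After the division 150 of 25998 start regions were higher (0.577%) and 136 lower (0.523%), and 199 of 25360 end regions higher (0.785%) and 72 lower (0.284%). Over all tested regions these shares were 0.755% and 0.387%, so the share of rises at the end was near that of all regions.

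Of 20 chromosomes (Y, with 3 regions, left aside), Reactivated lay wholly above Late on 4, wholly below on 3 and overlapped with it on 13. Chromosome 19 stood at 1.05, 1.07 and 1.04 times the library median in Reactivated and 0.906, 0.963, 0.932 and 0.972 times in Late, and chromosome 11 at 1.15, 1.05 and 1.04 in Reactivated and 0.959, 1.02, 0.984 and 1.02 in Late. Chromosome 17 was barely apart, at 1.03 to 1.13 in Reactivated and 0.942 to 1.03 in Late. Reactivated replicate 1 was the highest of all 7 libraries on chromosomes 11 and 17.

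Chromosome 7 had the largest median log2 fold change, 0.17 after the division, but its groups overlapped. Its calls leaned the other way, with 18 of 3422 regions higher (0.526%) and 28 lower (0.818%) after the division. Chromosome 7 stood at 1.23, 1.06 and 1.03 times the library median in Reactivated and at 0.938, 1.05, 0.933 and 1.03 times in Late. Late replicates 1 and 3 were low there, on chromosome 17 and on chromosome 19, and Late replicates 2 and 4 were higher. On chromosome X the order turned, with Late replicates 1 and 3 at 1.11 and 1.13, Late replicates 2 and 4 at 1.05 and 1.04, and Reactivated at 0.910, 1.02 and 1.12. The contrast of chromosome X with the autosomes was -0.11, 0.02 and 0.13 in Reactivated and 0.12, 0.05, 0.13 and 0.05 in Late on the log2 scale, a difference of -0.07 (exact permutation p = 0.286, 2-sided, adjusted over 5 contrasts 0.286), of -0.01 without Reactivated replicate 1 and -0.13 without Reactivated replicate 3. Of the 3364 regions on chromosome X, 7 were higher (0.208%) and 10 lower (0.297%) after the division. Over all tested regions 0.755% were higher and 0.387% lower.

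**Figure D5:**
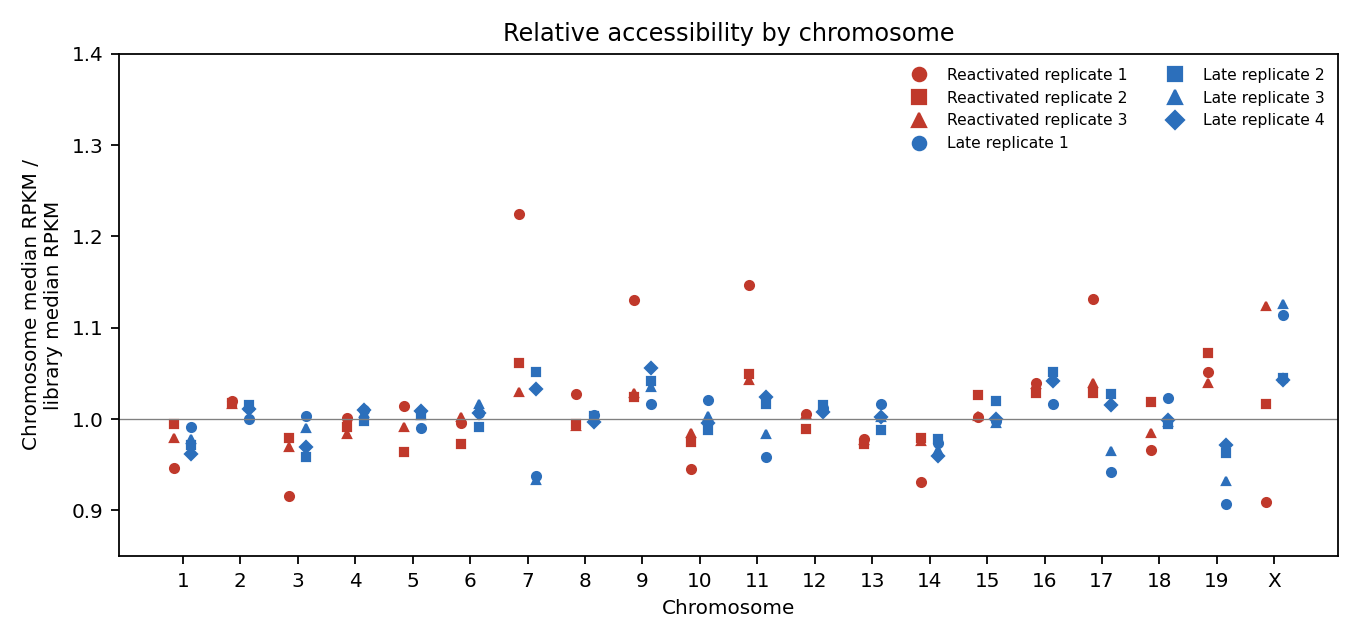
Median RPKM of each chromosome over the library median, 1 point per library, for the 3 Reactivated and 4 Late libraries. Chromosomes 7, 11, 17, 19 and X show the widest spread, and Reactivated replicate 1 lies highest on chromosomes 7, 11 and 17 (1.23, 1.15 and 1.13) and lowest on X (0.910).

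Windows of 10 Mb were compared in the same way. Of 270 windows with at least 50 regions 170 had a median log2 fold change above 0 and 100 below, with a median of 0.06. The highest were the first 10 Mb of chromosome 19 (0.31), 120 to 130 Mb on chromosome 11 (0.31) and 140 to 150 Mb on chromosome 7 (0.31). The first of these stood at 1.49, 1.30 and 1.19 times the library median in Reactivated and 0.889, 1.14, 0.931 and 1.05 times in Late, with 1.37 ± 0.114 in Basal and 0.617 ± 0.0521 in Early. Single regions hardly passed in it, with 1 higher and 1 lower of 245. The lowest windows were 100 to 110 Mb on chromosome X (-0.19), 90 to 100 Mb on chromosome 14 (-0.16) and 50 to 60 Mb on chromosome 8 (-0.16). At 90 to 100 Mb on chromosome 14 the levels were 0.670, 0.823 and 0.880 in Reactivated and 1.02, 0.937, 0.970 and 0.907 in Late, without overlap. Reactivated replicate 1 was the library farthest from Late in all 6 windows.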

How the data were processed

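ATAC-seq of sorted neuronal nuclei gave 14 libraries, grouped by their titles. The authors deposited 1 table of RPKM values. Per the submitters' processing notes the build was mm9 and the tools were MACS2, DESeq2, DiffBind, SAMtools and Bowtie2 2.0, without role or order. Region calling, duplicate removal and any shift of cut positions bear on region borders and on reads at dense regions, but are, like the base from which starts count, not given in the sources used here. RPKM times region width was a whole multiple of 1 step in each library for 100% of values (tolerance 0.01), which gave reads and scaling totals. Regions without reads appear at 1 read. The share of reads in regions had 95% Wilson intervals, for example 23.348% to 23.37% in Reactivated replicate 1, which cover counting error only. Mean chi-square of reads between libraries (1 for sampling noise) was 2.67 to 4.78 in Reactivated and 1.76 to 1.99 in Late, so no library was merged with another.

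Values were analysed as log2(RPKM + 0.5), which understates changes at low levels. All 14 libraries entered 1 limma fit (limma 3.58.1, R 4.3.3, trend, robust) with group means, 2-sided, with Benjamini-Hochberg adjustment over 172024 regions and a threshold of 0.05. This was repeated after each library was divided by its median over the regions kept and multiplied by the mean of the 14 medians. Errors of fold changes are moderated standard errors, and ± after a level is the SD. Single values per library were compared by exact permutation. Python 3.11.15 with pandas 2.3.3, numpy 2.4.6 and scipy 1.17.1 did the rest.

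The regions, classes and tests were chosen with earlier results of these data known. Named positions are, among called regions with groups without overlap and a mean log2 level above the median, the 10 largest changes each way as deposited (from 12 higher and 100 lower) and the 4 each way after the division (from 1236 and 215). Windows are the 3 highest and 3 lowest of 10 Mb. In simulated reads for this comparison over 172024 regions, with 50 regions changed per fold size, 4-fold changes were recovered in 50% of cases as deposited and 76% after the division, 2-fold in 2% and 6%, and smaller ones in 0%, with 0 and 1 false calls. A first pass mark of 75% recovery was missed as deposited and replaced by a check of fitted sizes, whose median for 4-fold changes was 1.52 where 1.58 had been simulated. Alternatives varied the pseudocount, filters, libraries in the fit, covariates, weights and scaling, and left out each library. Promoter sequences, motifs and gene lists were not used here.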

Additional observations from a re-analysis of the deposited data

Results flagged for a closer look

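At chr12:92442904-92443044, 1 of the named falls, Late replicate 4 had 5.016 RPKM, while Late replicates 1, 2 and 3 had 2.77, 2.48 and 2.71 RPKM. Its distance to the next library, over the range of the 4, passed Dixon's critical value of 0.829. This was 1 of 60 groups of 4 libraries examined, where chance passes about 1 in 20. Without that library the log2 fold change was -1.53 (limma, Benjamini-Hochberg adjusted p = 0.121), against -1.73 with it (0.0286), and over the other libraries left out 1 at a time the adjusted p was 0.0262 to 0.213.

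Of 99 regions on chrUn_random, which the comparison leaves out, 0 held more than 1 read in any Reactivated library, while at least 69 did in each Late library. The 0 also holds for the 7 Basal and Early libraries.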

How the results depend on the processing

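Beside 384 calls as deposited stood 253 with a pseudocount of 0.1, 52 at a mean of at least 1.5 RPKM, 6702 with Reactivated and Late libraries alone (5488 higher, 1214 lower), 1597 with the in-region read share as covariate, 5631 with array weights (3802 higher, 1829 lower), 1931 with median-of-ratios scaling, 636 with quantile normalization, 1951 after division by the library median, 0 with Late averaged to 1 sample (1718 at an unadjusted p under 0.05, limma), and 139 to 261 without 1 library. Beside 1951 after the division stood 3002 at a mean of at least 1.5 RPKM, 6406 with both groups alone, 6720 with array weights, 0 with Late averaged (4532 at an unadjusted p under 0.05), 756 under 0.2 reads per base (130 higher, 626 lower, an alternative chosen after seeing the data whose limit also applies to the Reactivated libraries and so removes regions by their own rise), and 102 to 287 without 1 library. The cause of these shifts was not tested, except that fits of fewer libraries take the spread from those left. Replicate numbers are shared between groups. Same-numbered libraries deviated with correlations of -0.126, -0.0375 and 0.0568, and libraries of other numbers with -0.0696 to 0.104. So few values cannot show whether the numbers pair libraries. With the replicate number as a block 227 regions passed as deposited and 107 after the division (5 higher, 102 lower). The 5 contrasts and 3 library measures kept their direction in every alternative run. With 3 against 4 libraries an exact permutation test cannot go below p = 0.0571. In simulation limma missed most 2-fold changes, in changed regions drawn at random from all tested. Recovery was not broken down by level, so it is not known for strongly open regions alone.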

Other observations

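The 8 regions above 40 RPKM, which the comparison leaves out, were all higher in Reactivated than in Late in the mean. At chr11:108872960-108873401 the level was 40.0 ± 2.78 RPKM in Reactivated (SD, n = 3) and 10.4 ± 1.01 RPKM in Late (n = 4), with 38.4 ± 1.55 RPKM in Basal and 15.3 ± 2.47 RPKM in Early. Reactivated and Basal were close there, and Late and Early lower, the same split of the groups into pairs as at chr3:5860345-5860825 and chr5:147072568-147072940. The position was chosen after its values were seen.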
